A study of Mus musculus with 16 samples.

Results

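The mitochondrial genome transcripts were taken as every gene that the deposited expression tables place on chromosome M, which gave 30 of 30277 genes. They comprised 13 protein-coding genes, 2 ribosomal RNA (rRNA) genes and 15 transfer RNA (tRNA) genes, and the other 7 mitochondrial tRNA genes were not analysed here. Each of the 30 was described by its level, by the share of the summed values that all of them took in a library, and by its own share of the chromosome M total. The 13 proteins are the core membrane subunits of the respiratory chain and the ATP synthase. Both strands of the circular genome are transcribed as long precursors, which are cut, mostly at the tRNAs that punctuate them, into separate rRNAs, mRNAs and tRNAs. Kidney tubule cells, those of the proximal tubule above all, are rich in mitochondria and depend on oxidative phosphorylation for solute transport.

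RNA with poly(A) tails was sequenced from perfused, frozen kidneys of 129S1/SvlmJ mice, an inbred strain made congenic for a recessive mutation of Klotho (Kl), the gene of the renal co-receptor for the phosphate hormone FGF23. The groups were 5 Kl/Kl males of 44 to 47 days, 3 +/Kl males of 45 to 46 days, 4 Kl/Kl females of 45 to 54 days and 4 +/+ females of 45 to 49 days. Kl/Kl mice were in renal failure and the others were healthy, per the labels. The comparison asked how renal failure changed kidney expression in each sex. Control males were all heterozygous and control females all wild type, so sex and control genotype cannot be told apart. The labels do not say that each library came from its own animal, and p-values therefore measure the spread between these samples. Expression was given as TPM, reads per gene length scaled to a fixed column total, in 1 table for each sex, with an estimated 21550000 to 31750000 reads per library. Kl stood at 0.0235 to 0.265 TPM in Kl/Kl males, against 4.14 to 15.1 TPM in +/Kl males, and at 0.0268 to 0.518 TPM in Kl/Kl females, against 9.18 to 21.2 TPM in +/+ females. In marker genes or chromosome M share, 2 libraries stood apart from their groups. Female Kl/Kl replicate 3 held 1933 TPM of 8 heart muscle genes and 1058 TPM of 6 airway genes, where the other 15 libraries held at most 2.03 and 0.41 TPM. It also held 1221 TPM of 6 genes of brown and white fat cells and 462 TPM of 6 macrophage genes. The other 15 held at most 40.8 and 34.4 TPM of these. Its 10 proximal tubule genes summed to 20.2 TPM, so its label as kidney is not borne out by its markers and its low Kl does not check its genotype. Male +/Kl replicate 3 had the highest chromosome M share of all libraries. Results that rest on either library are given with and without it.

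The genes lie end to end on chromosome M, and short stretches of sequence show how the members that the results turn on join their neighbours. Sequences are from the GENCODE vM21 transcripts (build GRCm38), matched by gene ID for 30 of 30 genes, and positions are those of the deposited tables (build mm39). The tRNA-Leu gene mt-Tl1 stands between the 16S rRNA gene mt-Rnr2 and mt-Nd1 with no base between them. On the plus strand of chrM:2656-2770, mt-Tl1 is in capitals and its neighbours are in lower case.
mt-Tl1: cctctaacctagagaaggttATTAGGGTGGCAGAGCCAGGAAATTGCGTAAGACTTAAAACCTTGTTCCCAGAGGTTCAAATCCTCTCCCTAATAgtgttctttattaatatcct
The complex I gene mt-Nd2 (chrM:3914-4951) likewise begins at the base after tRNA-Met, mt-Tm. On the plus strand of chrM:3845-3973, mt-Tm is in lower case and the start of mt-Nd2 in capitals.
mt-Nd2: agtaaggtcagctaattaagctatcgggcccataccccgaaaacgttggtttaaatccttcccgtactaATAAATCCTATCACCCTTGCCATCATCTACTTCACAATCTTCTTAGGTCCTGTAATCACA
The ATP synthase genes mt-Atp8 and mt-Atp6 share 43 bases, in capitals on the plus strand of chrM:7907-7989, so reads within them belong to both.
mt-Atp8 and mt-Atp6: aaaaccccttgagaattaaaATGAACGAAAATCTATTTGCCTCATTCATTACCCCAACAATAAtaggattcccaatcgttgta
Smaller overlaps were 7 bases between mt-Nd4l and mt-Nd4, 14 bases between mt-Nd5 and mt-Nd6 on opposite strands, and at most 3 bases between any other neighbours. Of the 30 genes, 9 lie on the minus strand, namely mt-Nd6 and 8 tRNA genes. Whether reads were assigned by strand is not given in the sources used here. Without strand, RNA of the opposite strand over a gene cannot be told from its own. This holds for the whole length of these 9 genes, and for the bases that mt-Nd5 and mt-Nd6 share, so their values are uncertain.

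By mean TPM, chromosome M mRNAs and their chromosome 1 copies filled the first 10 places in both tables, led by mt-Co1, mt-Atp8 and mt-Cytb, with the copy Gm10925 in place 6 in males and 5 in females. Among the 13 mRNAs and 2 rRNAs, mt-Co1, the catalytic core of cytochrome c oxidase, ranked first in 16 of 16 libraries, at 21826 to 26066 TPM in males and 21852 to 28985 TPM in females. mt-Atp8 ranked second in 14 of 16 libraries. The lowest of the 15 was mt-Rnr1, the 12S rRNA, in 11 libraries and mt-Nd3, a small complex I subunit, in the other 5. Poly(A) selection favours the polyadenylated mRNAs, and TPM here divides by the whole gene span, introns included, so that intronless genes stand high beside spliced nuclear genes. By length the 15 genes ran from 204 bases (mt-Atp8) to 1824 bases (mt-Nd5), and their GC content from 31.9% (mt-Atp8) to 41.1% (mt-Nd4l). The 15 tRNA genes, of 65 to 75 bases, together took 0.0313% to 0.0639% of the chromosome M total.

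The share of the summed TPM taken by chromosome M genes overlapped between Kl/Kl kidneys and controls in both sexes. The share in each library was 35.4%, 41.1%, 41.6%, 37.0% and 44.8% in Kl/Kl males, against 40.9%, 42.5% and 54.3% in +/Kl males. The means were 39.98% ± 3.78 in Kl/Kl males (SD, n = 5) and 45.89% ± 7.34 in +/Kl males (SD, n = 3), a difference of -5.91 percentage points. The highest +/Kl value is that of replicate 3, and without it the +/Kl mean was 41.68% ± 1.16 (SD, n = 2) and the difference -1.70 points. In females the share was 39.7%, 37.8%, 44.1% and 39.4% in Kl/Kl females, against 40.2%, 42.2%, 41.8% and 42.0% in +/+ females. The means were 40.26% ± 2.71 in Kl/Kl females and 41.55% ± 0.91 in +/+ females (SD, n = 4 each), a difference of -1.29 points. Without Kl/Kl replicate 3, the remaining Kl/Kl females (38.97% ± 1.02, SD, n = 3) all lay below every +/+ female, by -2.58 points on average. Fewer cells of a type and less RNA per cell cannot be told apart in RNA from whole kidneys.

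Weighted back to reads (TPM times gene length), the same genes took a smaller part of each library. It was 9.23%, 11.3%, 12.0%, 9.77% and 12.0% in Kl/Kl males, against 10.4%, 10.8% and 21.5% in +/Kl males. Apart from the 21.5% of +/Kl replicate 3, the males lay between 9.23% and 12.0%, with the groups overlapping. The mean difference was -3.38 points with that library and 0.271 points without it. In females it was 9.96%, 9.34%, 19.7% and 9.41% in Kl/Kl females, against 9.50%, 10.9%, 10.4% and 10.2% in +/+ females. Here Kl/Kl replicate 3 stood alone at 19.7%, and the mean difference turned from 1.86 points with it to -0.67 points without it. The 2 libraries that stood apart were the highest of all 16 on this scale.

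**Figure D1:**
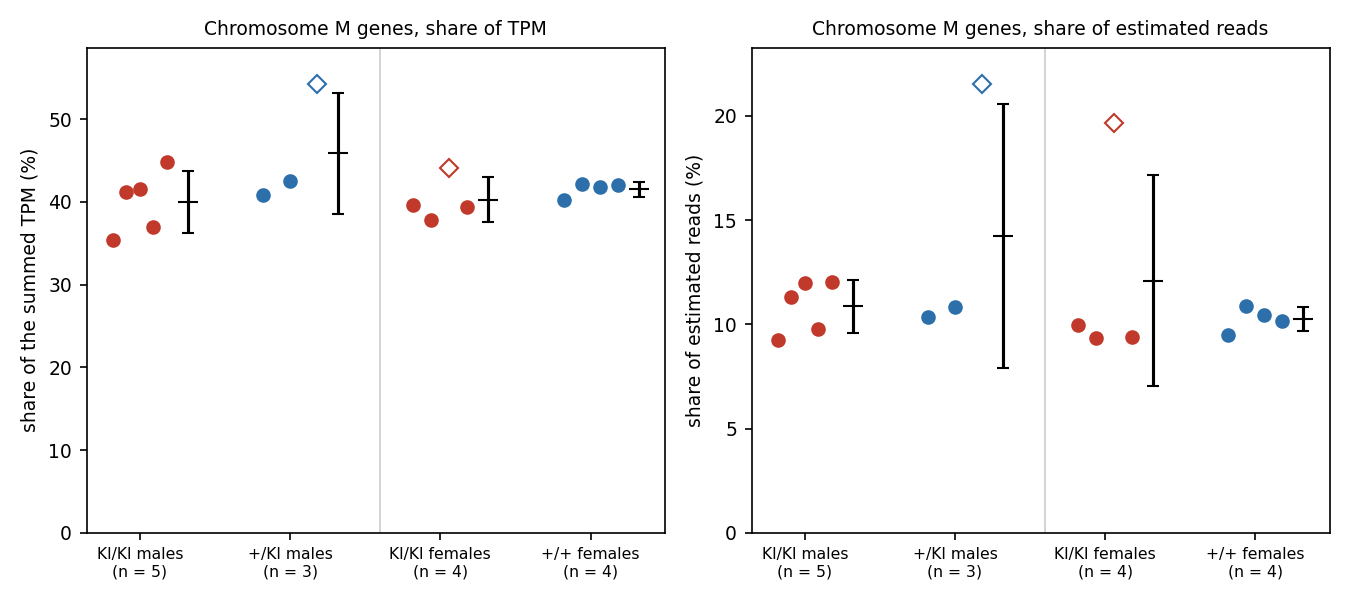
Share of the summed TPM (left) and of the estimated reads (right) taken by the 30 chromosome M genes, in percent, with 1 point per library and the mean ± SD of each group in black. Open diamonds mark the 2 libraries that stood apart, +/Kl male replicate 3 at 54.3% and 21.5% and Kl/Kl female replicate 3 at 44.1% and 19.7%, and the other 14 libraries lie between 35.4% and 44.8% (left) and between 9.23% and 12.0% (right).

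By class, protein-coding genes held 96.4% to 97.6% of the chromosome M total in Kl/Kl males, against 96.6% to 97.6% in +/Kl males, and 95.4% to 97.5% in Kl/Kl females, against 96.6% to 97.9% in +/+ females. The rRNAs held nearly all of the rest, 2.36% to 3.55% in Kl/Kl males, against 2.33% to 3.36% in +/Kl males. In Kl/Kl females the rRNA share was 2.43% to 4.49%, against 2.06% to 3.36% in +/+ females, and the highest value was that of Kl/Kl replicate 3. Neither class separated the groups in either sex. Split by respiratory complex, the 7 complex I genes held 30.4% ± 1.79 of the chromosome M total in Kl/Kl males (SD, n = 5) and 33.2% ± 1.81 in +/Kl males (SD, n = 3), with overlap. The pair of complex V genes held 20.5% to 22.7% in Kl/Kl males, against 19.0% to 20.2% in +/Kl males, with no overlap. Of all genes tested, 17.4% likewise had every Kl/Kl male above every +/Kl male after division by the chromosome M total (17.7% without +/Kl replicate 3). In females their share was 17.8% to 20.9% in Kl/Kl mice, against 19.1% to 20.8% in +/+ mice, which overlapped.

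Among the subunits of complex I, the proton-pumping NADH dehydrogenase, mt-Nd2 stood out in both sexes. It encodes a core subunit of the membrane arm. Its level was 4128, 4939, 4825, 4493 and 6404 TPM in Kl/Kl males, against 6149, 6808 and 8586 TPM in +/Kl males. All Kl/Kl males but replicate 5 lay below every +/Kl male. The means were 4958 TPM ± 868 in Kl/Kl males (SD, n = 5) and 7181 TPM ± 1260.0 in +/Kl males (SD, n = 3), with a log2 change of -0.54 (SE 0.16, limma adjusted p = 0.0680). The level in females was 4299, 4189, 4983 and 4506 TPM in Kl/Kl females, against 5789, 5118, 5911 and 6446 TPM in +/+ females, and every Kl/Kl female lay below every +/+ female. The female means were 4494 TPM ± 351 in Kl/Kl females (SD, n = 4) and 5816 TPM ± 546 in +/+ females (SD, n = 4), with a log2 change of -0.37 (SE 0.08, limma adjusted p = 0.729). Neither change passed the threshold of an adjusted p under 0.05. The male change passed it in 4 of the alternative fits, with a limma adjusted p of 0.0209 with array weights, 0.0293 with the replicate block, 0.0331 in the 4-group fit and 0.0299 without Kl/Kl replicate 5. In all other alternative fits the male change did not pass, with a limma adjusted p from 0.0507 (prefix of the library name) to 0.176 (no filter). The female change passed it with array weights. Without female Kl/Kl replicate 3 the change was -0.42 (SE 0.08, limma adjusted p = 0.0852), and without male +/Kl replicate 3 it was -0.40 (SE 0.17, limma adjusted p = 0.150). The direct test of the difference between the sexes gave -0.17 (SE 0.18, limma adjusted p = 0.615).

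As a share of the chromosome M total, which does not depend on how the columns were scaled, mt-Nd2 was lower in every Kl/Kl library than in every control of its sex. The share was 4.09%, 4.21%, 4.06%, 4.26% and 5.01% in Kl/Kl males, against 5.27%, 5.61% and 5.54% in +/Kl males. The female shares were 4.08%, 4.18%, 4.26% and 4.31% in Kl/Kl females, against 5.43%, 4.58%, 5.33% and 5.78% in +/+ females. The means were 4.33% ± 0.392 in Kl/Kl males (SD, n = 5) and 5.48% ± 0.178 in +/Kl males (SD, n = 3), and 4.21% ± 0.0974 in Kl/Kl females (SD, n = 4) and 5.28% ± 0.507 in +/+ females (SD, n = 4), so that Kl/Kl mice had 79.0% of the control mean in males and 79.7% in females. Without the libraries that stood apart these were 79.5% and 79.4%. The closest pair of values was 5.01% in Kl/Kl male replicate 5 and 5.27% in +/Kl male replicate 1. Of all genes tested, 1.92% had every Kl/Kl library below every control after division by the chromosome M total in males, and 1.92% did so in females. Without +/Kl replicate 3 this background was 17.4% in males, and without Kl/Kl replicate 3 it was 2.04% in females. In Kl/Kl mice the share of mt-Nd2 also lay below that of controls when the estimated reads took the place of TPM, with 4.30% to 5.29% in Kl/Kl males, against 5.53% to 5.93% in +/Kl males, and 4.24% to 4.47% in Kl/Kl females, against 4.74% to 6.08% in +/+ females. The ratio of mt-Nd2 to mt-Co1 was 0.205 ± 0.0285 in Kl/Kl males (SD, n = 5) and 0.296 ± 0.0337 in +/Kl males (SD, n = 3), without overlap. In females it was 0.186 ± 0.0108 in Kl/Kl mice and 0.253 ± 0.0296 in +/+ mice (SD, n = 4 each), again without overlap. Against its upstream neighbour mt-Nd1, the ratio was 0.489 ± 0.00973 in Kl/Kl females and 0.629 ± 0.0667 in +/+ females, without overlap. In males the same ratio was 0.493 ± 0.0447 in Kl/Kl mice and 0.565 ± 0.0318 in +/Kl mice, and the groups overlapped. No p is given for shares and ratios, since the genes were chosen with results of these data known.

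**Figure D2:**
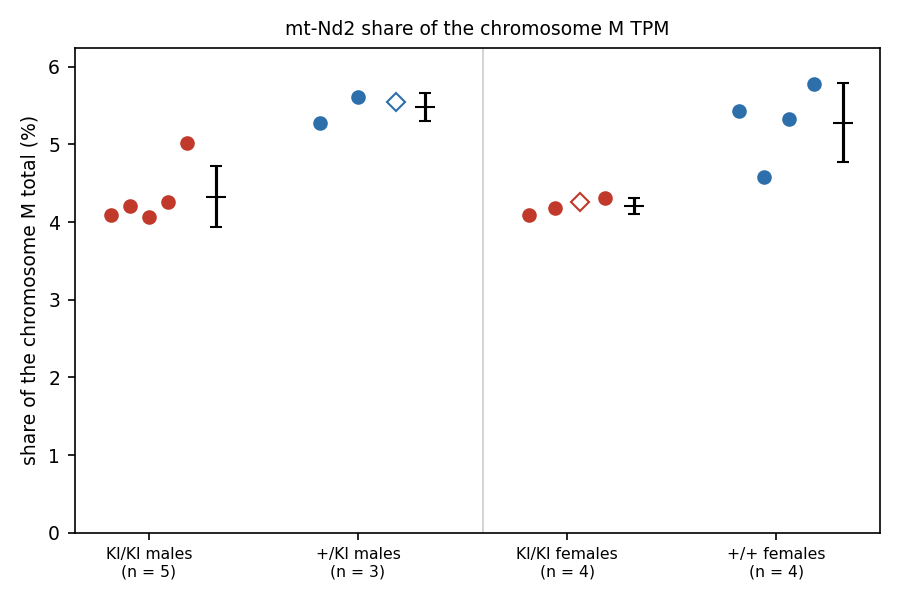
Share of mt-Nd2 in the summed TPM of the 30 chromosome M genes, in percent, with 1 point per library and the mean ± SD of each group in black. Kl/Kl males sit between 4.06% and 5.01%, below +/Kl males at 5.27% to 5.61%, and Kl/Kl females between 4.08% and 4.31%, below +/+ females at 4.58% to 5.78%, with open diamonds for the libraries that stood apart.

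Of the other complex I genes, mt-Nd1, the first mRNA after the rRNAs, was at 8311, 10269, 10531, 9717 and 11268 TPM in Kl/Kl males, against 10826, 11438 and 16146 TPM in +/Kl males. In females mt-Nd1 was at 9057, 8440.2, 10174 and 9126 TPM in Kl/Kl females, against 8734, 9582, 9354 and 9404 TPM in +/+ females. The groups overlapped in both sexes, although its share of the chromosome M total was lower in all Kl/Kl males (8.23% to 9.21%) than in all +/Kl males (9.29% to 10.4%). mt-Nd3 was at 1286, 1226, 1414, 966 and 1561 TPM in Kl/Kl males, against 1469, 1436 and 2215 TPM in +/Kl males. In females mt-Nd3 was at 1162, 991, 947 and 1107 TPM in Kl/Kl females, against 1193, 1237, 1283 and 1381 TPM in +/+ females. Every Kl/Kl female lay below every +/+ female for mt-Nd3, with a log2 change of -0.28 (SE 0.09, limma adjusted p = 0.745). Without overlap its share was lower too, though the nearest values were 1.104% in a Kl/Kl female and 1.106% in a +/+ female. mt-Nd4l, a small membrane subunit, was at 1989.5, 2897, 2424, 2319 and 3354 TPM in Kl/Kl males, against 2996, 2905 and 3186 TPM in +/Kl males. In females mt-Nd4l was at 2501, 2386, 2088 and 2701 TPM in Kl/Kl females, against 2752, 2934, 3237 and 2661 TPM in +/+ females. Its groups overlapped in both sexes. mt-Nd4, a large membrane-arm subunit read from the same mRNA as mt-Nd4l, was at 6249, 8587, 6576, 6389.8 and 8928 TPM in Kl/Kl males, against 8416, 8476 and 12143 TPM in +/Kl males. In females mt-Nd4 was at 7218, 6966, 7512 and 7472 TPM in Kl/Kl females, against 7285, 8277, 8556 and 7697 TPM in +/+ females. The female groups overlapped through Kl/Kl replicates 3 and 4 and +/+ replicate 1.

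mt-Nd5, the subunit at the end of the membrane arm, was at 3280.1, 4085, 4549, 4641 and 5641 TPM in Kl/Kl males, against 3769, 4660.5 and 5335 TPM in +/Kl males. In females mt-Nd5 was at 3626, 3531, 2611 and 3996 TPM in Kl/Kl females, against 4708, 3951, 3664 and 4576 TPM in +/+ females, where the lowest value was that of Kl/Kl replicate 3. Both sexes overlapped. mt-Nd6, the mRNA that is read from the other strand, was at 3709.7, 3617, 3806, 4288 and 4949 TPM in Kl/Kl males, against 3188, 4264 and 6887 TPM in +/Kl males. In females mt-Nd6 was at 3374, 3080.4, 3921 and 3396 TPM in Kl/Kl females, against 3907, 3247, 2929.5 and 3872 TPM in +/+ females. Its coefficient of variation in +/Kl males, 39.8%, was the highest of the 15 mRNA and rRNA genes in any group, with the 6887 TPM in +/Kl replicate 3. The log2 change of mt-Nd6 in males was -0.17 (SE 0.22, limma adjusted p = 0.634). Without that library it was 0.13 (SE 0.17, limma adjusted p = 0.611).

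Cytochrome b of complex III, mt-Cytb, was at 10206, 12339, 10733, 10319.8 and 12772 TPM in Kl/Kl males, against 11246, 11870.3 and 17087 TPM in +/Kl males. In females mt-Cytb was at 10539, 10510.5, 10662 and 10219.8 TPM in Kl/Kl females, against 9692, 11065, 11338 and 10359 TPM in +/+ females. Groups overlapped, and in Kl/Kl females mt-Cytb was the steadiest of the 15 genes, with a coefficient of variation of 1.79%. For complex IV, mt-Co1 was at 21826, 24446, 26030.3, 23228 and 25131 TPM in Kl/Kl males, against 23478, 22989 and 26066 TPM in +/Kl males. In females mt-Co1 was at 23363, 21852, 28985 and 22910.3 TPM in Kl/Kl females, against 22905, 23805, 23169 and 22438 TPM in +/+ females. The level overlapped in both sexes, while the share of the chromosome M total was higher in all Kl/Kl females (21.8% to 24.8%) than in all +/+ females (20.1% to 21.5%). mt-Co2, the subunit that takes electrons from cytochrome c, was at 7606, 9069, 8494, 7239 and 9526 TPM in Kl/Kl males, against 9258, 9402 and 13076 TPM in +/Kl males. In females mt-Co2 was at 8718, 7576, 11665 and 8240.3 TPM in Kl/Kl females, against 7796, 9017, 8801 and 8294 TPM in +/+ females. Its share was lower in all Kl/Kl males (6.86% to 7.73%) than in all +/Kl males (7.75% to 8.44%), by a narrow margin. mt-Co3, a structural core subunit, was at 7642, 7904, 8943, 6462 and 8393 TPM in Kl/Kl males, against 9076, 8846 and 11154 TPM in +/Kl males. In females mt-Co3 was at 7460.1, 6973, 7345 and 7559.5 TPM in Kl/Kl females, against 7794, 8172, 7671 and 8089.8 TPM in +/+ females, all Kl/Kl below all +/+. Its log2 change was -0.11 (SE 0.04, limma adjusted p = 0.745) in females and -0.30 (SE 0.13, limma adjusted p = 0.169) in males.

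Of the ATP synthase genes, mt-Atp8 was at 12303, 14514, 15529.6, 12341 and 15632 TPM in Kl/Kl males, against 12925, 14115 and 15912 TPM in +/Kl males. In females mt-Atp8 was at 11867, 12069, 10609 and 11878 TPM in Kl/Kl females, against 12752, 12324, 11991 and 13399 TPM in +/+ females, with the lowest value in Kl/Kl replicate 3. mt-Atp6, which forms the proton channel with the ring of c subunits, was at 10043, 10433, 11417, 9247 and 11137 TPM in Kl/Kl males, against 9828, 10362 and 13483 TPM in +/Kl males. In females mt-Atp6 was at 9077, 8889, 10245 and 8921 TPM in Kl/Kl females, against 9103, 9306, 9229 and 9746 TPM in +/+ females. Levels overlapped in both sexes. As shares, both genes were higher in every Kl/Kl male than in every +/Kl male, mt-Atp8 at 11.7% to 13.1%, against 10.3% to 11.6% in +/Kl males, and mt-Atp6 at 8.72% to 9.94%, against 8.43% to 8.70% in +/Kl males, the last by a narrow margin. This is the complex V difference given above, beside the same background of 17.4% of all genes, and the 2 genes share sequence.

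The rRNAs form the mitochondrial ribosome and made up a small share of these poly(A)-selected libraries. mt-Rnr1, the 12S rRNA, was at 698, 1166, 1071, 1178 and 919 TPM in Kl/Kl males, against 1447, 1314 and 1283 TPM in +/Kl males. Every Kl/Kl male lay below every +/Kl male, with a log2 change of -0.44 (SE 0.19, limma adjusted p = 0.167). In females mt-Rnr1 was at 1099, 1096, 1894 and 851 TPM in Kl/Kl females, against 709.6, 1401, 1533 and 1026 TPM in +/+ females, a wide overlap. mt-Rnr2, the 16S rRNA, was at 1684, 1872, 2325, 2566 and 2097 TPM in Kl/Kl males, against 2469.6, 2341 and 2327 TPM in +/Kl males. In females mt-Rnr2 was at 1859, 1684, 3365 and 1694 TPM in Kl/Kl females, against 1489, 2352, 2182 and 2083 TPM in +/+ females, where Kl/Kl replicate 3 stood far above the rest. The ratio of mt-Rnr2 to mt-Rnr1 overlapped between groups in both sexes.

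Counting genes, 1 of the 15 mRNA and rRNA genes (mt-Rnr1) had all Kl/Kl males below all +/Kl males in TPM, where 4.40% of all genes tested did, and 0 had them above, where 19.1% of all genes did. In females 3 of the 15 (mt-Nd2, mt-Co3 and mt-Nd3) lay below without overlap, where 3.54% of all genes did, and 0 lay above, where 4.79% did. As shares of the chromosome M total, males had 3 of 15 below (mt-Nd1, mt-Nd2, mt-Co2) beside a background of 1.92%, and 2 above (mt-Atp8, mt-Atp6) beside 17.4%. Females had 2 of 15 below (mt-Nd2, mt-Nd3) beside 1.92%, and 1 above (mt-Co1) beside 5.72%. As shares, the same genes lay above and below without the library that stood apart. The background was then 17.7% above and 17.4% below in males and 19.7% above and 2.04% below in females. In TPM, mt-Atp6 also lay below in females without Kl/Kl replicate 3. Shares of 1 total are tied to each other, so a gene with a higher share leaves less for the rest. Only mt-Nd2 was on the share list of both sexes.

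**Figure D3:**
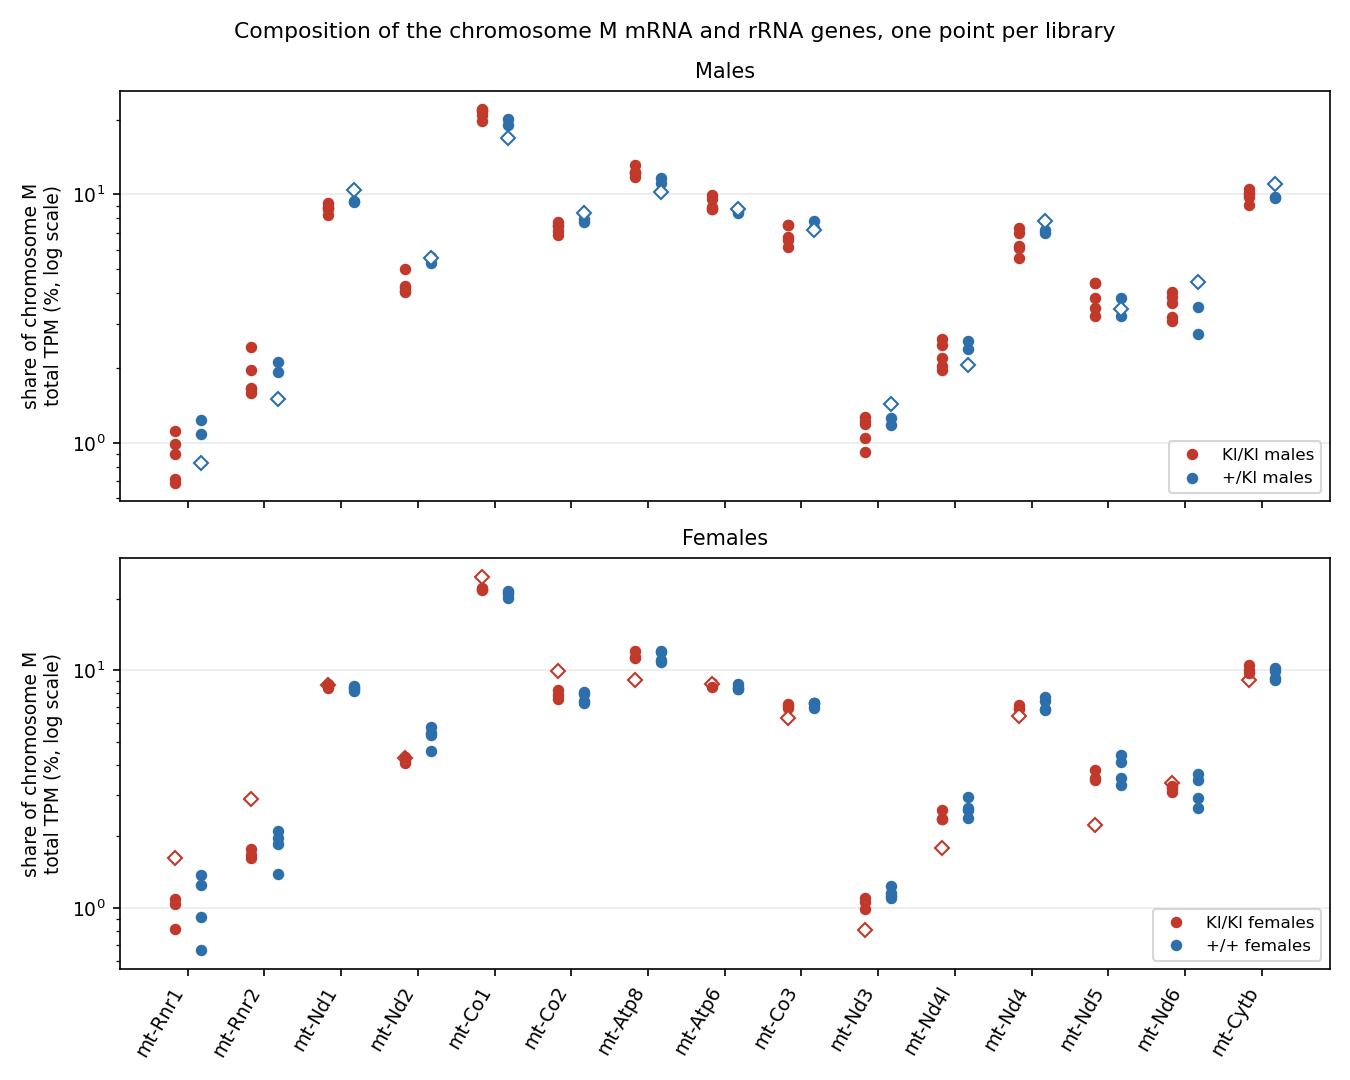
Share of each mRNA and rRNA gene in the chromosome M total (percent, log scale), in genome order, with 1 point per library and Kl/Kl left of control for each gene. For mt-Nd2 the Kl/Kl points lie below the control points in both panels, while for most genes the groups overlap, and open diamonds mark +/Kl male replicate 3 and Kl/Kl female replicate 3.

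Tested across all genes with limma on log2(TPM + 1), 22 of the 30 genes passed the filter of a mean of 1 TPM in males, and 1 was called. This was the tRNA gene mt-Tl1, higher in Kl/Kl males (316 of 8439 genes, or 3.74%, were called higher). None was called lower, where 184 genes (2.18%) were, and 7 of the 22 had an unadjusted p under 0.05. These were mt-Rnr1, mt-Tl1, mt-Nd1, mt-Nd2, mt-Co2, mt-Co3 and mt-Nd4. Without +/Kl replicate 3, 23 were tested, 0 called and 3 had an unadjusted p under 0.05, namely mt-Tl1, mt-Nd2 and mt-Te. In females 20 passed the filter, 0 were called and 5 had an unadjusted p under 0.05, namely mt-Nd2, mt-Atp8, mt-Co3, mt-Nd3 and mt-Nd4l. Without Kl/Kl replicate 3 the same held for 4 of 20, namely mt-Nd2, mt-Co3, mt-Nd3 and mt-Nd4l. The share of all genes at an unadjusted p under 0.05 is not given here, so these counts have no background beside them. Of 8596 genes tested in females, 3 were called lower (0.0349%) and 0 higher (0.00%). For the difference between the sexes' changes, 21 genes were tested and 0 called, with 1 at an unadjusted p under 0.05 (mt-Tq) and a background of 0.211%.

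The 15 mRNA and rRNA genes had a median log2 change of -0.25 in males, where 15 of 15 were negative and the median of all genes was 0.19. Their changes ran from -0.54 (mt-Nd2) to -0.00325 (mt-Co1). Without +/Kl replicate 3 the median was -0.16 with 10 of 15 negative, and all genes had a median of 0.01. In females the median was -0.02, with 11 of 15 negative, beside -0.16 for all genes. Without Kl/Kl replicate 3 it was -0.11, with 15 of 15 negative, beside 0.06 for all genes. Scaling by the median of ratios over nuclear genes brought the median of all genes to 0.01 in males and 0.02 in females, and called 457 genes higher and 699 lower in males. On that scale, with all libraries kept, the chromosome M median was -0.51 in males, with 15 of 15 negative. In females it was 0.27, with 2 of 15 negative. With Kl/Kl replicate 3 kept, the direction of the female genes as a group thus flips with the scaling. The change of mt-Nd2 on that scale was -0.80 in males and -0.09 in females (limma adjusted p = 0.0975 and 0.880). This scaling was not run without the libraries that stood apart.

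**Figure D4:**
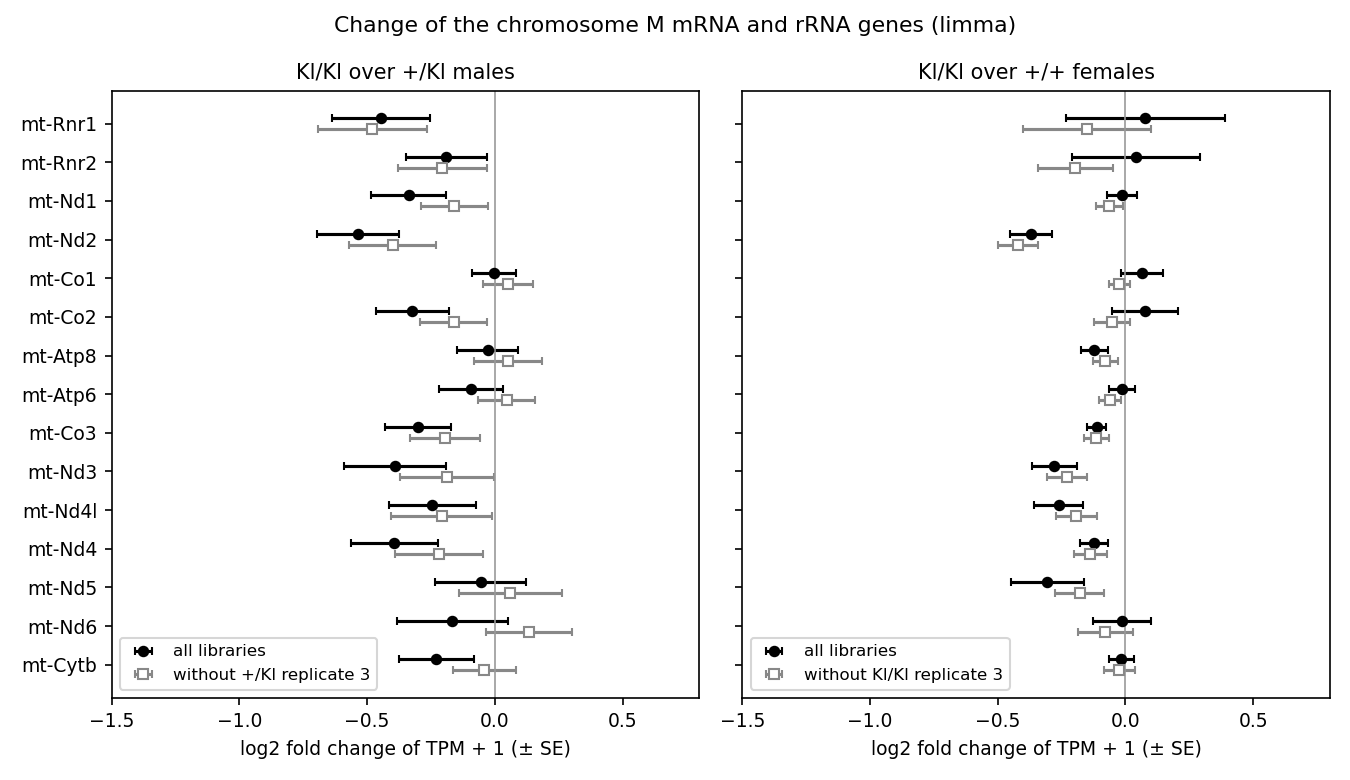
Log2 fold change of TPM + 1 (± SE, limma) of the 13 mRNA and 2 rRNA genes, Kl/Kl over +/Kl in males (left) and Kl/Kl over +/+ in females (right), with all libraries (filled) and without the library that stood apart (open). In males all 15 filled points lie at or left of 0 and mt-Nd2 is lowest at -0.54. In females mt-Nd2 is again lowest at -0.37, with 11 of the 15 filled points and 15 of the 15 open points left of 0. Median-of-ratios scaling, not drawn here, left 2 of the 15 female changes negative with all libraries.

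The tRNA genes carried few reads, and their TPM values came out as whole reads in every library. mt-Tl1, shown above between mt-Rnr2 and mt-Nd1, had 7, 14, 8, 16 and 20 reads in Kl/Kl males, against 5, 5 and 2 reads in +/Kl males. This was 4.11, 6.53, 3.62, 9.30 and 8.77 TPM in Kl/Kl males, against 2.55, 2.41 and 0.744 TPM in +/Kl males, all Kl/Kl above all +/Kl, with a log2 change of 1.36 (SE 0.32, limma adjusted p = 0.0358). In TPM 19.1% of all genes lay above without overlap in males, and 17.4% did so after division by the chromosome M total. In females it had 5, 3, 25 and 8 reads in Kl/Kl females, against 0, 3, 8 and 7 reads in +/+ females. The female groups overlapped, the highest value was that of Kl/Kl replicate 3, and the log2 change was 0.83 (SE 0.59, limma adjusted p = 0.745). The male call rested on at most 20 reads in a library and was lost without Kl/Kl replicate 2, 4 or 5 or +/Kl replicate 2 or 3. Without +/Kl replicate 3 it was 1.02 (SE 0.32, limma adjusted p = 0.0780). Reads that ended in mt-Tl1 and reads of an uncut precursor with mt-Rnr2 and mt-Nd1 cannot be told apart in gene-level values.

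The tRNA gene of highest mean level in both tables was mt-Ts1 (tRNA-Ser, minus strand), which shares 3 bases with the end of mt-Co1 on the other strand. It was at 19.2, 12.2, 26.5, 16.4 and 24.8 TPM in Kl/Kl males, against 22.8, 21.0 and 26.3 TPM in +/Kl males. In females mt-Ts1 was at 18.6, 17.8, 38.1 and 11.8 TPM in Kl/Kl females, against 15.3, 19.4, 11.8 and 15.3 TPM in +/+ females, with overlap in both sexes. The lowest in males was mt-Tk (tRNA-Lys), with 0 reads in 8 of 8 libraries, and the lowest in females was mt-Th (tRNA-His), with 0, 0, 1 and 0 reads in Kl/Kl females, against 0, 1, 0 and 0 reads in +/+ females. At this depth neither was detectable in most libraries. mt-Tq (tRNA-Gln) had 3, 2, 4 and 4 reads in Kl/Kl females, against 1, 0, 1 and 0 reads in +/+ females. All Kl/Kl females were thus above all +/+ females, where 4.79% of all genes were, but the gene was under the filter of the female test. In males mt-Tq had 3, 3, 2, 3 and 3 reads in Kl/Kl males, against 1, 4 and 5 reads in +/Kl males, with overlap, and the test of the difference between the sexes gave -1.07 (SE 0.32, limma adjusted p = 0.508). Of the 15 tRNA genes, 6 had under 5 reads in every library and 3 (mt-Ts1, mt-Te and mt-Tp) had a read in each of the 16.

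Part of chromosome M is present a further time in the nuclear genome, and the tables list those copies as genes of their own. A block on chromosome 1 (chr1:24650616-24655278, minus strand, build mm39) holds 7 pseudogenes that match mt-Nd4, mt-Nd4l, mt-Nd3, mt-Co3, mt-Atp6, mt-Co2 and mt-Co1 at 99.71% to 100% identity in the GENCODE transcripts. Gm28437, Gm10925, Gm28661, Gm10222 and Gm28439 matched over their aligned length with 0 mismatches. Gm28438 differed from mt-Nd3 by 1 base in 345, T3C, counted from 1 at the start of mt-Nd3, with the mitochondrial base first. Both sequences begin as follows, 5′ to 3′ along the gene, with the differing base in capitals.
mt-Nd3 (chromosome M): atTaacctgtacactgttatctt
Gm28438 (chromosome 1): atCaacctgtacactgttatctt
Gm29216 differed from mt-Co1 by 1 base in 483, A1066T, counted from 1 at the start of mt-Co1 with the mitochondrial base first. These are bases 1063 to 1086 of mt-Co1 and the matching stretch of the copy.
mt-Co1 (chromosome M): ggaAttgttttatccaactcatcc
Gm29216 (chromosome 1): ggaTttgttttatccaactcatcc

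For 3 of the 7 pairs the deposited values of copy and mitochondrial gene were nearly equal in all 16 libraries. Gm28437 stood at 100% to 100.1% of mt-Co3, Gm10925 at 99.8% to 100% of mt-Atp6 and Gm28661 at 99.9% to 100.2% of mt-Co2. Gm10222 was at 67.9% to 89.2% of mt-Nd4l. Gm28438 was higher than its mitochondrial partner, at 153.5% to 194.5% of mt-Nd3 in Kl/Kl males, 161.4% to 178.8% in +/Kl males, 169.1% to 327.9% in Kl/Kl females and 166.9% to 182.2% in +/+ females. Gm28439 had 0.00554% to 13.5% of the level of mt-Nd4, and Gm29216 had 0.0127% to 0.95% of that of mt-Co1. Whether reads that fit both places were split, counted at each or placed at random is not given in the sources used here, so the levels of these 7 mitochondrial genes are uncertain. mt-Nd2, mt-Nd1, mt-Nd5, mt-Nd6, mt-Cytb and mt-Atp8 have no copy listed in this block.

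**Figure D5:**
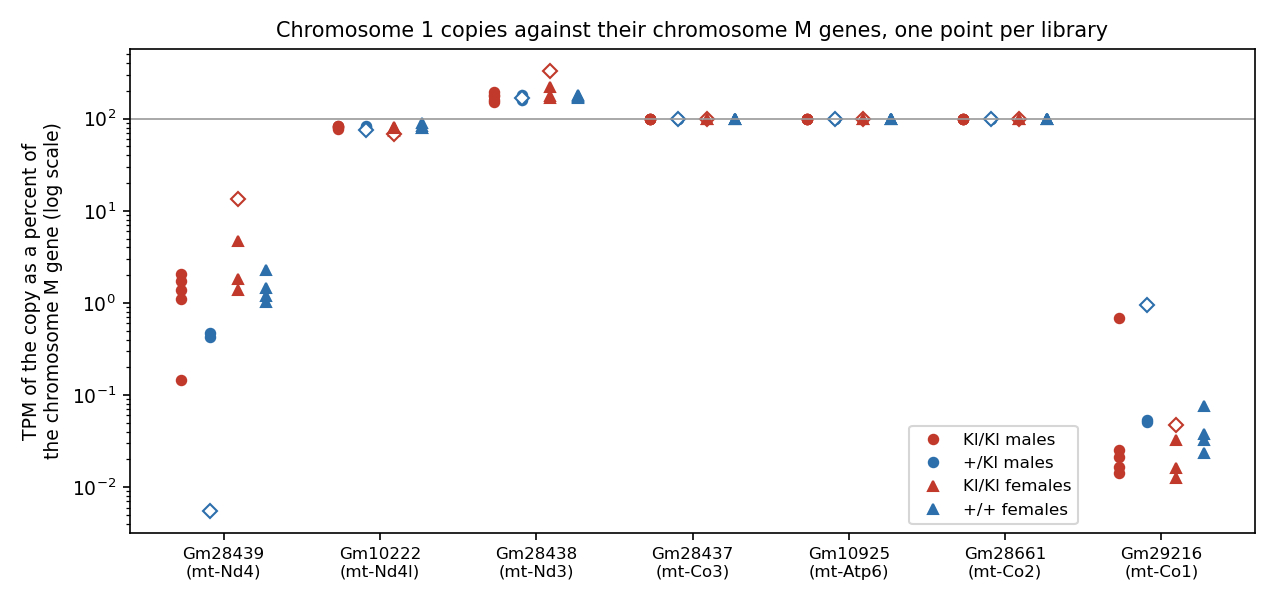
TPM of the 7 chromosome 1 copies as a percent of their chromosome M gene (log scale), with 1 point per library (circles for males, triangles for females, open diamonds for the libraries that stood apart). The copies of mt-Co3, mt-Atp6 and mt-Co2 lie on the line at 100% in all groups, while those of mt-Nd4 and mt-Co1 lie far below it and vary most between libraries.

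The 7 copies took 9.36% to 12.1% of the summed TPM in Kl/Kl males, against 11.7% to 15.4% in +/Kl males, and 10.4% to 13.1% in Kl/Kl females, against 11.0% to 11.8% in +/+ females. Adding them to the 30 genes gave shares of 50.9% ± 4.78 in Kl/Kl males (SD, n = 5) and 58.8% ± 9.50 in +/Kl males (SD, n = 3), with overlap. In females the sum was 51.6% ± 3.91 in Kl/Kl mice and 53.1% ± 1.25 in +/+ mice (SD, n = 4 each), with overlap. Without Kl/Kl replicate 3 the Kl/Kl females lay at 48.1% to 50.8%, below the 51.2% to 53.9% of +/+ females, by -3.27 points on average. Without +/Kl replicate 3 the male groups still overlapped, with a difference of -2.47 points. With the copies in the total, the mt-Nd2 share was 3.17% to 3.95% in Kl/Kl males, against 4.10% to 4.40% in +/Kl males, and 3.19% to 3.37% in Kl/Kl females, against 3.58% to 4.53% in +/+ females. The groups did not overlap with this total. Among the 6 mRNA genes with no copy listed in the block, mt-Nd2 took 9.66% to 11.3% in Kl/Kl males, against 12.3% to 12.8% in +/Kl males, without overlap. In females it took 10.0% to 11.6% of those 6 genes in Kl/Kl mice, against 11.3% to 13.4% in +/+ mice, and the groups overlapped through Kl/Kl replicate 3 (11.6%). Without that library the Kl/Kl females lay at 10.0% to 10.45%, below all +/+ females. Leaving out mt-Atp8, which shares bases with mt-Atp6, the other 5 genes gave mt-Nd2 13.4% to 15.6% in Kl/Kl males, against 15.9% to 17.5% in +/Kl males, and 13.9% to 15.4% in Kl/Kl females, against 15.5% to 18.6% in +/+ females, without overlap in either sex. Other nuclear copies of 90.7% to 97.6% identity, among them Gm13339 for mt-Nd2, stood at most at 4.94 TPM in any library. None of the 7 was called by limma in either sex. Their log2 changes in males ran from -1.68 (SE 1.22, limma adjusted p = 0.383) for Gm29216 to 2.38 (SE 1.11, limma adjusted p = 0.193) for Gm28439. In females they ran from -0.53 (SE 0.495, limma adjusted p = 0.745) to 1.21 (SE 0.70, limma adjusted p = 0.745) for the same copies. Gm28437 was at -0.30 (SE 0.13, limma adjusted p = 0.169) in males and Gm10222 at -0.40 (SE 0.13, limma adjusted p = 0.745) in females.

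Nuclear genes that build, transcribe or translate the mitochondrial system were set beside the chromosome M genes in 9 lists. Of 234 genes listed, 194 were tested in males, with 1 called higher (background 3.74%) and 1 called lower (background 2.18%). In females 196 were tested and 0 called, with 0 at an unadjusted p under 0.05. Without Kl/Kl replicate 3, 196 were tested and 0 called, with 7 at an unadjusted p under 0.05. No share of all genes at that level is given here. The gene called higher was Cox6b2, a complex IV subunit isoform best known from testis, at 15.9 to 49.7 TPM in Kl/Kl males (mean 25.6 TPM ± 13.9, SD, n = 5) and 4.85 TPM ± 0.307 in +/Kl males (SD, n = 3), a log2 change of 2.06 (SE 0.32, limma adjusted p = 0.00416). The gene called lower was Mrps36, at 2.04 TPM ± 0.358 in Kl/Kl males (SD, n = 5) and 3.57 TPM ± 0.312 in +/Kl males (SD, n = 3), a log2 change of -0.59 (SE 0.15, limma adjusted p = 0.0431). Without +/Kl replicate 3, 1 was called higher and 7 lower, of which 5 were mitochondrial ribosomal proteins, beside 3.16% and 7.36% of all genes.

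The 36 tested nuclear subunits of complex I had a median log2 change of -0.09 in males, with 23 negative, and 0.08 in females, with 11 negative, beside 0.19 and -0.16 for all genes. Their member of highest mean, Ndufb11, averaged 75.2 TPM ± 8.63 in Kl/Kl males (SD, n = 5) and 66.5 TPM ± 9.41 in +/Kl males (SD, n = 3). The medians were -0.11 and 0.01 for 9 complex III genes, and -0.01 and 0.02 for 14 complex V genes in males and females. For complex IV they were 0.00 over 14 genes in males and 0.08 over 15 in females. Among genes that transcribe and maintain mitochondrial DNA the medians were 0.03 and -0.11, with Tfam, the packaging and transcription factor, at 4.60 TPM ± 0.169 in Kl/Kl males (SD, n = 5) and 3.96 TPM ± 1.28 in +/Kl males (SD, n = 3). For RNA processing and stability they were 0.07 and -0.11, with Hsd17b10, a subunit of mitochondrial RNase P, at 39.2 TPM ± 3.77 in Kl/Kl males (SD, n = 5) and 31.5 TPM ± 5.78 in +/Kl males (SD, n = 3). The lowest +/Kl value of Ndufb11, Tfam and Hsd17b10 was that of +/Kl replicate 3, at 56.8, 2.50 and 25.2 TPM. Without it, Tfam in +/Kl males (4.44 and 4.93 TPM) spanned the 4.44 to 4.86 TPM of Kl/Kl males. None of these genes was called in males, with log2 changes of 0.17, 0.21 and 0.32 (limma adjusted p = 0.573, 0.47 and 0.316). Without that library the limma adjusted p was 0.785, 0.895 and 0.409. The 71 tested mitochondrial ribosomal proteins had medians of -0.10 and -0.04, the 10 aminoacyl-tRNA synthetases 0.06 and -0.25, and the 6 regulators of biogenesis 0.35 and -0.24. These medians changed when the libraries that stood apart were left out. Without +/Kl replicate 3, 8 of the 9 male medians were negative (4 with it), from -0.23 for the ribosomal proteins to 0.10 for the regulators of biogenesis, with -0.17 for complex I and -0.15 for the synthetases, beside 0.01 for all genes. Without Kl/Kl replicate 3, the 9 female medians lay between -0.02 and 0.05, with 0.000318 for complex I, 0.05 for RNA processing, -0.0017 for the synthetases and 0.03 for the regulators, beside 0.06 for all genes. None of these lists held a called gene in females.

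Marker sums of some cell types separated the groups and others overlapped. The 10 proximal tubule genes summed to 509.8 to 967 TPM in Kl/Kl males, against 4137 to 4676 TPM in +/Kl males, and to 20.2 to 856 TPM in Kl/Kl females, against 954 to 1414 TPM in +/+ females. Kap, an androgen-dependent kidney gene, was at 76.2 to 369 TPM in Kl/Kl males, against 3451 to 4081 TPM in +/Kl males. Without Kap the other 9 genes summed to 402 to 599 TPM in Kl/Kl males, against 363 to 770.0 TPM in +/Kl males, and to 15.1 to 673 TPM in Kl/Kl females, against 597 to 699 TPM in +/+ females, with overlap in both sexes. Without +/Kl replicate 3 the +/Kl males lay at 685 to 770.0 TPM, above all Kl/Kl males. Among the 9 the lactate transporter gene Slc5a12 lay the other way, at 17.5 to 29.7 TPM in Kl/Kl males, against 1.17 to 11.1 TPM in +/Kl males. The 8 thick ascending limb and distal tubule genes summed to 293 to 362 TPM in Kl/Kl males, against 92.0 to 300.0 TPM in +/Kl males, with overlap also without +/Kl replicate 3 (262 to 300.0 TPM). The 5 podocyte genes summed to 13.5 to 17.5 TPM in Kl/Kl males, against 5.47 to 11.0 TPM in +/Kl males, without overlap, and to 4.27 to 15.9 TPM in Kl/Kl females, against 13.8 to 17.5 TPM in +/+ females, with overlap. The 7 collecting duct genes summed to 169 to 251 TPM in Kl/Kl males, against 70.1 to 121 TPM in +/Kl males. For the 6 macrophage genes the sums were 10.4 to 21.0 TPM in Kl/Kl males, against 5.76 to 10.7 TPM in +/Kl males, with overlap. Among the 6, Csf1r lay the other way, at 0.879 to 1.87 TPM in Kl/Kl males, against 1.91 to 3.18 TPM in +/Kl males. The 6 blood genes summed to 42.1 to 211 TPM in Kl/Kl males, against 37.4 to 147 TPM in +/Kl males, with overlap, and to 1234 TPM in Kl/Kl female replicate 2. In the 2 groups of males the heart and airway sums were at most 1.37 and 0.38 TPM. The part of these cell types in the chromosome M values was not tested. In +/Kl male replicate 3 the 9 proximal tubule genes other than Kap summed to 363 TPM, against 685 to 770.0 TPM in the other +/Kl males. Its Kap, at 4081 TPM, was the highest of the +/Kl males. The mt-Nd2 share was 5.54% in that library, between those of the other +/Kl males. In female Kl/Kl replicate 3, not kidney by its markers, the share was 4.26%, within the 4.08% to 4.31% of the other Kl/Kl females. Whether marker levels bear on the mt-Nd2 share was not tested.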

How the data were processed

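Kidney RNA with poly(A) tails was sequenced in 16 libraries, with groups read from the labels. TPM values, as the authors deposited them, came in 1 table of males and 1 of females. Partek (program) and mm39 (build) are named in the submitters' processing notes. How reads were aligned, counted where they fit several places and assigned by strand is not given in the sources used here. Every column summed to 285327 (males) or 265288 (females). No value was 0, and the lowest equalled 0.0001 read per gene span, which allowed depth and reads to be estimated: 73.3% to 75.4% of low values, and all tRNA gene values above that floor, were whole reads within 0.05. These are estimates, so no counting interval was computed. The stop column lay 1 past the last base, and gene length was taken as stop minus start, 1 base shorter than planned.

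The test took genes whose mean reached 1 TPM and was run on log2(TPM + 1) with limma 3.58.1 in R 4.3.3 (lmFit, eBayes with trend), within each table, with Benjamini-Hochberg adjustment over all genes and a threshold of 0.05. Fold changes are on this scale, which understates low genes. The difference between sexes came from a 4-group model. The procedure was tested on simulated data. Nuclear copies were found with BLAST+ 2.17.0 (at least 90% identity over 100 bases). Python 3.11.15, NumPy 2.4.6, pandas 2.3.3 and matplotlib 3.10.9 were used.

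Named genes were all mRNA and rRNA genes, the highest, lowest and called tRNA genes, the copies, and from each list up to 3 called genes in each direction or else the highest, of which not all are printed. Members, lists and tests were chosen with earlier results of these data known, and mt-Tq and the marker genes were singled out after their values were seen. Alternatives were other pseudocounts, filters, scalings, array weights, the prefix of the library name, a replicate block, a 4-group fit and leaving out each library.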

Additional observations from a re-analysis of the deposited data

Results flagged for a closer look

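In 8 of 90 groups of 4 or 5 libraries tested, 1 library lay far from the rest of its group. The critical value used flags about 1 in 20 groups by chance, and these groups are not independent, since copies and shares of 1 total move together. In females, 5 of the 8 were Kl/Kl replicate 3, the library with heart and airway genes. Its chromosome M share of estimated reads was 19.7% (nearest library 9.96%), mt-Rnr2 was 3365 TPM (nearest 1859 TPM) and mt-Atp8 was 10610.0 TPM (nearest 11870.0 TPM). Its mt-Atp6 was 10240.0 TPM (nearest 9077 TPM), and Gm10925, the copy of mt-Atp6, was 10220.0 TPM (nearest 9079 TPM). In Kl/Kl males, the mt-Nd2 share of the chromosome M total was 5.01% in replicate 5 (nearest 4.26%). Gm28438, the copy of mt-Nd3, was 1729 TPM in replicate 4 (nearest 2246 TPM), and Gm29216, the copy of mt-Co1, was 147.9 TPM in replicate 1 (nearest 6.66 TPM). Among +/Kl males, a group too small for this test, Gm29216 was 247.7 TPM in replicate 3.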

How the results depend on the processing

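The 1 gene called higher in Kl/Kl males (mt-Tl1) became 0 with a pseudocount of 10, no filter, a filter of 5 TPM, the replicate block or the 4-group fit, 2 with array weights (mt-Tl1 and mt-Te), and 0 to 1 when each library was left out. The 0 called lower became 2 with array weights (mt-Rnr1 and mt-Nd2), 1 with the block or the 4-group fit (mt-Nd2), and 0 to 1 without single libraries. In females 0 called lower became 1 with array weights (mt-Nd2), and 0 differences between the sexes became 2. Over all genes, median-of-ratios scaling called 1156 in males, against 500 in the fit as reported. The cause was not tested. The replicate numbers did not pair the samples (correlation of same-numbered deviations -0.18 to 0.04 in males and -0.12 to 0.29 in females). With the block, mt-Nd2 in males was -0.62 (limma adjusted p = 0.0293), while mt-Tl1 was 1.02 (limma adjusted p = 0.0764), and no female call changed. Leaving out single libraries, the difference in chromosome M share ran from -8.42 to -1.70 points in males and from -2.58 to -0.46 in females, and that in mt-Nd2 share from -1.32 to -1.08 and from -1.31 to -0.91. Within the 6 mRNA genes with no listed chromosome 1 copy, a smaller total, the mt-Nd2 difference was -2.52 points in males and -2.10 in females, where the groups overlapped, and without mt-Atp8 it was -2.74 and -2.94, both chosen after seeing the data. As estimated reads the tRNA share differed by 0.000834 points in males (0.0119 as TPM). Single genes kept the sign of the change and their side of the threshold, though not always the size, in 346 of 389 male and 323 of 356 female values. The sign of a change that was not called turned in 28 male and 32 female values, and 0 called changes reversed. The planned voom fit on estimated reads is not reported, because the reads are estimates, of which 73.3% to 75.4% of low values came out whole. Depth limits the tRNA genes, most of which had under 10 reads.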
